A study of Mus musculus with 6 samples.

Results

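The genes described here are the cytochrome P450 genes of families 1 to 4, the glutathione transferase genes of the alpha, kappa, mu, omega, pi and theta classes and the flavin-containing monooxygenase (FMO) genes. They were taken from the deposited count table by symbol alone, and 106 of its 26100 gene rows matched: 80 P450 genes, 21 glutathione transferase (GST) genes and 5 FMO genes. Whole lung was compared between 3 wild-type (WT) mice and 3 *Clec7a* knockout (KO) mice, 1 library per mouse. All 6 mice, the controls included, had received bleomycin into the airway, and lungs were taken 14 days later. Bleomycin is a DNA-damaging drug used to model lung fibrosis, and *Clec7a* encodes dectin-1, a beta-glucan receptor of myeloid cells. Sources used here do not give the knockout design, strain, age or sex of the mice, and lungs without bleomycin were not analysed here. The comparison asks how these genes differ with genotype in injured lung.

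P450 enzymes are haem proteins of the endoplasmic reticulum that insert an oxygen atom into drugs, pollutants, steroids and fatty acids, using electrons passed on by P450 oxidoreductase. FMO enzymes oxidise nitrogen and sulphur atoms in foreign compounds, and GST enzymes join glutathione to reactive products of such oxidation. In the lung, many of these enzymes are concentrated in the secretory (club) cells of the airway, which makes those cells sensitive to compounds that P450 enzymes turn into reactive forms. *Cyp1a1* and *Cyp1b1* are textbook targets of the aryl hydrocarbon receptor, and several GST genes are textbook targets of the stress factor NRF2.

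The promoters of a pair of CYP1 genes and of 1 alpha-class GST gene are printed because the values of these genes show how members of 1 family, or members with such promoter motifs, can differ. Each is the 250 bases before the transcription start, read 5′ to 3′ on the strand of the gene, from RefSeq on GRCm38.p6. Capitals mark GCGTG, the core of the xenobiotic response element, or TGACNNNGC, the core of the antioxidant response element, each on either strand (the reverse complement of GCGTG reads CACGC). The *Cyp1a1* window lies at chr9:57697363-57697612 on the plus strand, the *Cyp1b1* window at chr17:79715062-79715311 on the minus strand and the *Gsta3* window at chr1:21240335-21240584 on the plus strand.
Cyp1a1: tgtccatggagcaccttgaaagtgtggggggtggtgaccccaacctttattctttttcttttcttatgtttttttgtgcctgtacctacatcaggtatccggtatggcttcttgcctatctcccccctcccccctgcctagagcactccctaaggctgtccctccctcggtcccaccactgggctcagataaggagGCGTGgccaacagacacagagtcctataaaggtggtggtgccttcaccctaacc
Cyp1b1: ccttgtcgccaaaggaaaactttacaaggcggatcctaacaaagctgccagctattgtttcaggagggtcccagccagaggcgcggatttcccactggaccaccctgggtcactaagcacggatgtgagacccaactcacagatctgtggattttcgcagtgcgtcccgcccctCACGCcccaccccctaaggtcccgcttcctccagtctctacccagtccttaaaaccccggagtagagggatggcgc
Gsta3: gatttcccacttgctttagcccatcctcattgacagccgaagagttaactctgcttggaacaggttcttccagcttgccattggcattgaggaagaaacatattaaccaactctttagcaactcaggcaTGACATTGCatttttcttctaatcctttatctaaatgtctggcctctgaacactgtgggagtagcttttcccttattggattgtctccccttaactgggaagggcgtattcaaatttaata

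The GCGTG core starts 54 bases before the start site in *Cyp1a1* (position -54) and at position -76 in *Cyp1b1*, and the TGACNNNGC core of *Gsta3* starts at position -121. RefSeq promoters, here 300 bases that run 50 bases past the start, were found for 41 of the 48 members that were tested, 49 promoters in all. GCGTG was in 15 of these 49 (30.6%) and in 32.4% of all 32851 promoters of that length. TGACNNNGC was in 6 of the 49 (12.2%) and in 12.4% of all promoters. Both cores were therefore about as common among the members as in the whole table. These matches describe letters in a window and say nothing on whether a factor was bound.

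The libraries held 31052936 to 34451956 counts, and both first replicates, WT and KO, differed from the other 4 libraries. Across the genes tested, Spearman correlations were at most 0.947 for pairs that included a first replicate and at least 0.959 for the rest. Mitochondrial transcripts took 7.34% of counts in KO replicate 1 and between 2.69% and 3.87% elsewhere. The targeted gene *Clec7a* was at 60.6, 84.0 and 196.5 CPM (counts scaled to a common library size) in WT replicates 1, 2 and 3 and at 3.60, 6.85 and 2.84 CPM in KO replicates 1, 2 and 3, so that each library matched its label. Results that rest on a first replicate are given with and without it. Whole lung mixes cell types, so fewer cells of a type and less RNA per cell cannot be told apart.

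The 106 members together took 0.28%, 0.139% and 0.127% of the counts in WT replicates 1 to 3 and 0.236%, 0.178% and 0.269% in KO replicates 1 to 3. No count was recorded for 30 members, all of them P450 genes, among them 7 of the 9 Cyp3a genes and 8 of the 15 Cyp2c genes, which are families best known from liver. A count of 0 in a library allows up to 3 counts, or 0.0875 to 0.0948 CPM, counting error only. A further 28 members had counts but were too low to be tested, the highest being *Cyp2c23* with 53 counts over the 6 libraries, and 18 of the 28 had 10 counts or fewer. The low-count filter kept 48 members: 23 P450 genes, 20 of the 21 GST genes and all 5 FMO genes. *Cyp1a2*, the hepatic sister gene of *Cyp1a1*, had 4 counts in all, each in KO replicate 1, and *Cyp3a57* had 5. *Gstt4*, the GST gene that was left out, had 3 counts.

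Set on the length-scaled FPKM values of the authors, averaged over the 6 libraries, *Fmo2* stood first at 128.7 FPKM. It encodes the FMO form that dominates in the lung of most mammals. *Cyp2f2*, the naphthalene-activating P450 of club cells, followed at 121.6 FPKM, then *Gstp1* at 116.4 and *Gsto1* at 105.1 FPKM. *Gstm1* was at 86.2, *Gstm2* at 64.5, *Cyp4b1* at 63.1, *Fmo1* at 46.8 and *Cyp2b10* at 44.1 FPKM. The first 4 cannot be ordered beyond their spread, since the WT mean of *Cyp2f2* alone was 58.2 ± 69.1 FPKM and its KO mean 185.0 ± 104.9 FPKM (SD, n = 3 each). *Fmo2* was at 141.0 ± 45.4 FPKM in WT and 116.4 ± 20.3 FPKM in KO. *Cyp1b1*, at 4.06 FPKM, and *Cyp2u1*, at 0.33 FPKM, stood far lower in this order.

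**Figure D1:**
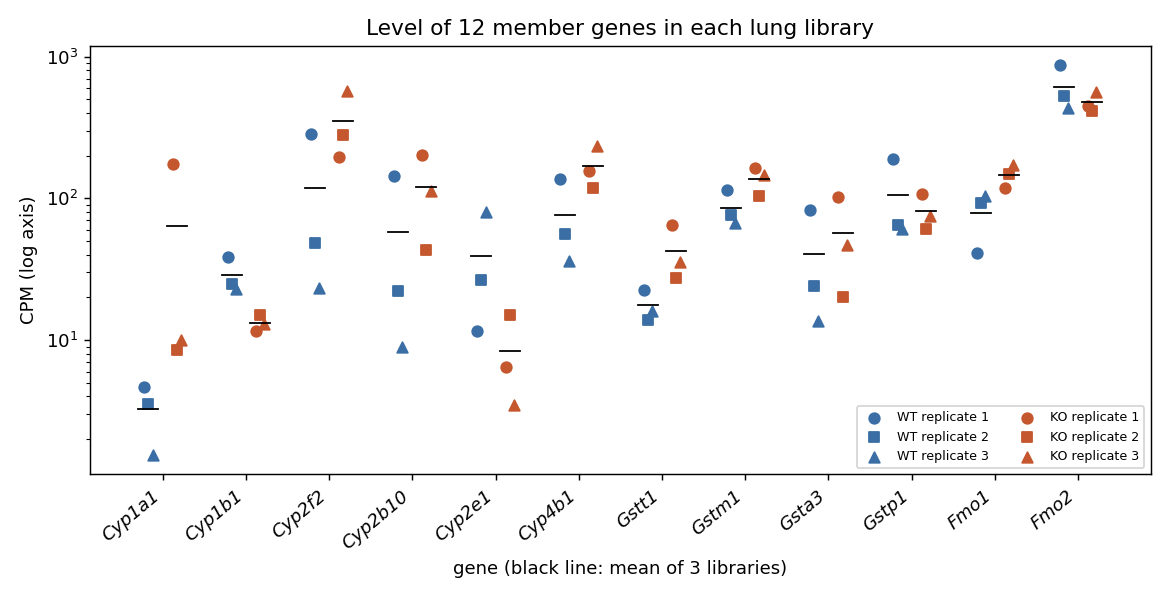
Level of 12 member genes in CPM (log axis) in each of the 6 lung libraries, WT in blue and KO in orange, with a symbol for each replicate number and a black line at the mean of 3 libraries. *Cyp1a1*, *Cyp1b1*, *Gstt1* and *Fmo1* show no overlap between genotypes, and the KO mean of *Cyp1a1* is carried by KO replicate 1 at 174.4 CPM.

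No member passed the threshold of 0.05 on the adjusted p. *Cyp1b1* was the member with the lowest p and was lower in KO, while *Cyp1a1*, of the same family, had the largest positive estimate. *Gstt1*, *Fmo1* and *Fmo5* lay higher in all KO libraries than in all WT libraries. edgeR's quasi-likelihood test with Benjamini-Hochberg adjustment called 0 of the 48 members and 0% of the 16633 genes tested, with a smallest adjusted p among members of 0.234. At an unadjusted p under 0.05 there were 10 of 48 members (20.8%), against 11.8% of all genes tested. At this threshold 7 of the 48 had higher values in KO, against 5.95% of all genes, and 3 had lower values, against 5.89%. DESeq2 called 1 member, *Cyp1b1* (lower in KO, adjusted p = 0.0142), against 3.63% of all genes with an adjusted value, 1.91% higher and 1.73% lower. Limma-voom called 0 members, and limma-voom with sample weights, which counts libraries that fit poorly for less, called 12 of 48, against 13.4% of all genes.

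The groups did not overlap for 8 of the 48 members (16.7%), against 21.1% of all genes. KO lay above WT in 6 of the 48 members, against 9.81% of all genes, and below WT in 2, against 11.3%. Estimates of the log2 fold change, always given as KO minus WT, were positive for 30 members and negative for 18, and positive for 49% of all genes. The median estimate was 0.17 over the members and -0.01 over all genes. By group, it was 0.11 for the P450 genes (13 positive, 10 negative), 0.20 for the GST genes (15 positive, 5 negative) and -0.36 for the FMO genes (2 positive, 3 negative). The GST median was -0.07 without KO replicate 1, and the P450 median was -0.05 without KO replicate 3. The FMO median was 0.57 without WT replicate 1, 0.46 without both first replicates, 0.47 with limma-voom, 0.49 with sample weights, 0.56 with the replicate block, and 0.08 or 0.43 on FPKM with a pseudocount of 1 or 0.1. The plot of estimates by family shows how wide the standard errors of the epithelial members were.

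These counts turned on single libraries. Members at an unadjusted p under 0.05 numbered 19 of 48 without WT replicate 1, against 15.6% of all genes, and none of them passed adjustment, against 0% of all genes. They numbered 5 of 50 without WT replicate 2 (6.32% of all genes), 5 of 50 without WT replicate 3 (9.23%) and 4 of 51 without KO replicate 1 (12.1%). Without KO replicate 2 there were 7 of 50 (9.28%), and without KO replicate 3 there were 4 of 50 (8.07%). With both first replicates left out there were 20 of 48, against 30% of all genes, and 0 passed adjustment, against 0.275% of all genes. The median estimate of the members was 0.57 without WT replicate 1, -0.04 without KO replicate 1 and 0.57 without both.

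**Figure D2:**
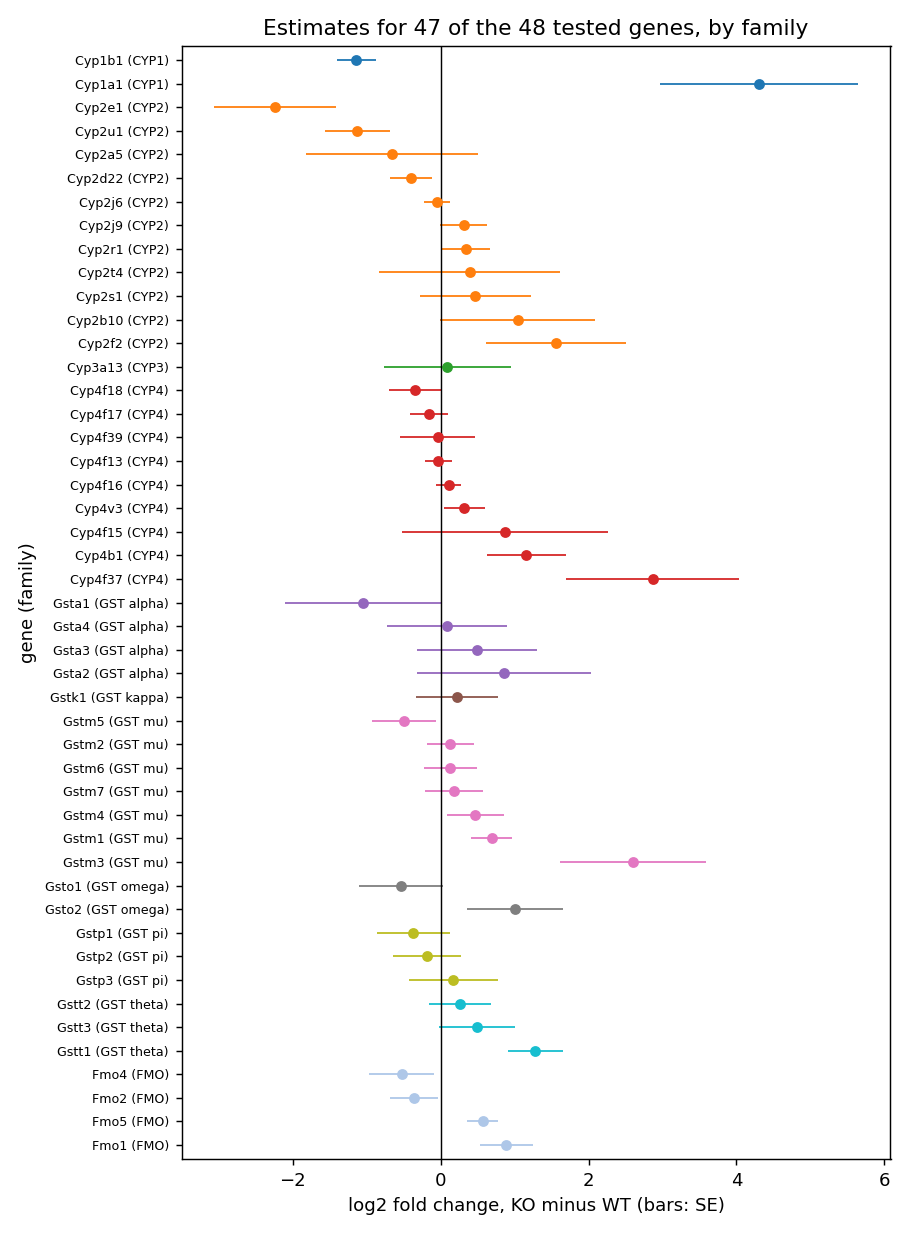
Log2 fold change, KO minus WT, for 47 of the 48 members tested, ordered within family, with bars for 1 standard error. The 3 theta-class GST genes all lie above 0 with all libraries in the fit, while the CYP1 genes lie on opposite sides at 4.31 and -1.14.

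*Cyp1b1* (ENSMUSG00000024087, GRCm38 chromosome 17, 79701537 to 79715061, minus strand) oxidises polycyclic hydrocarbons and oestradiol and is often read in mesenchymal cells. It was at 38.8, 25.1 and 22.9 CPM in WT replicates 1, 2 and 3 and at 11.5, 14.9 and 12.9 CPM in KO replicates 1, 2 and 3. Every KO library lay below every WT library. The means were 28.9 ± 8.6 and 13.1 ± 1.7 CPM (SD, n = 3 each), 2.20-fold apart, and the log2 fold change was -1.14 ± 0.26 (SE). The unadjusted p was 0.00363 and edgeR's adjusted p was 0.234. With each library left out in turn the estimate lay between -1.28 and -0.87, and it was -0.78 without both first replicates. Windows of 50 bases shared with another annotated gene made up 0% of its transcripts. Of the mesenchymal marker lists, smooth muscle and myofibroblast genes were lower in estimate in 10 of 12 (median -0.93). In 5 of them the unadjusted p was under 0.05, all lower, against 5.89% of all genes. KO lay below WT in 6, against 11.3% of all genes. Estimates were positive for 16 of 16 alveolar and 8 of 14 adventitial fibroblast markers. The unadjusted p was under 0.05 in 6 of the alveolar and 4 of the adventitial markers, all higher, against 5.95% of all genes. KO lay above WT in 3 alveolar and 4 adventitial markers, against 9.81% of all genes. The part of these cells in the *Cyp1b1* values was not tested.

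*Cyp1a1* (ENSMUSG00000032315, chromosome 9, 57687928 to 57703824, plus strand), which oxidises polycyclic hydrocarbons and is induced through the aryl hydrocarbon receptor, had 151, 115 and 53 counts in WT replicates 1 to 3. The KO libraries held 5523, 288 and 326 counts. On the CPM scale this was 4.64, 3.54 and 1.55 in WT and 174.4, 8.57 and 10.05 in KO. All KO libraries lay above all WT libraries, and KO replicate 1 was 17.4-fold above the next highest library. The log2 fold change was 4.31 ± 1.34 (SE), with an unadjusted p of 0.0163 and an adjusted p of 0.309 in edgeR. It was 1.52 without KO replicate 1 and 1.88 without both first replicates, and DESeq2 gave no adjusted p for this gene.

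Other genes of the aryl hydrocarbon receptor pathway gave mixed values. Of 11 listed genes, all tested, 1 had an unadjusted p under 0.05, with 6 positive and 5 negative estimates and a median of 0.02. *Ahrr*, the receptor's repressor and itself one of its targets, was at 0.37, 0.49 and 0.29 CPM in WT and 0.82, 0.48 and 0.52 CPM in KO replicates 1, 2 and 3. Its highest library was KO replicate 1, as for *Cyp1a1*, but the groups overlapped. *Tiparp*, another target, was highest in KO replicate 3 at 192.6 CPM and lowest in KO replicate 1 at 58.5 CPM. The receptor gene *Ahr* had an estimate of -0.03 and the stress factor gene *Nfe2l2* one of 0.66. The gene at an unadjusted p under 0.05 was *Slc7a5*, an amino acid transporter, with an estimate of -1.29.

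The CYP2 family had 48 members, of which 17 had no count and 11 were tested. Estimates were positive for 6 and negative for 5 (median 0.31), and 2 (18.2%) had an unadjusted p under 0.05, both lower in KO, against 11.8% of all genes in either direction and 5.89% lower. At least 2 log2 units separated the libraries in 6 of the 11, against 22.3% of all genes. *Cyp2f2* (ENSMUSG00000052974, chromosome 7) was at 285.9, 48.3 and 23.2 CPM in WT replicates 1, 2 and 3 and at 197.1, 281.5 and 571.6 CPM in KO replicates 1, 2 and 3. WT replicate 1 lay within the KO range and WT replicates 2 and 3 far below it. The estimate was 1.56 ± 0.95 (SE), with an adjusted p of 0.571 in edgeR. Without WT replicate 1 it was 3.29, and without both first replicates it was 3.59 with an adjusted p of 0.0621.

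*Cyp2b10*, a target of the nuclear receptor CAR in liver that airway epithelium also makes, was at 143.2, 22.2 and 8.90 CPM in WT and 202.8, 43.2 and 112.7 CPM in KO. It was high in both first replicates and in KO replicate 3, and the groups overlapped. The estimate was 1.04 ± 1.05 (SE), with 0.43 when KO replicate 1 was left out and 2.94 when WT replicate 1 was. *Cyp2s1*, a P450 of epithelia outside the liver, was at 90.9, 19.9 and 15.3 CPM in WT and 33.2, 47.1 and 94.0 CPM in KO. WT replicate 1 and KO replicate 3 were nearly level at the top, and the estimate was 0.47 ± 0.75 (SE). *Cyp2a5*, a coumarin-hydroxylating P450 picked here after its values were seen, reached 28.4 CPM in WT replicate 1 and was at 1.78 and 1.98 CPM in WT replicates 2 and 3. In KO it was at 2.46, 11.9 and 5.95 CPM, so the WT library that was highest and the WT libraries that were lowest enclosed the KO values.

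*Cyp2e1* (ENSMUSG00000025479, chromosome 7), the ethanol-oxidising P450 best known from liver and also read in fat tissue, differed in the opposite direction. It was at 11.6, 26.6 and 79.8 CPM in WT replicates 1 to 3 and at 6.51, 14.9 and 3.48 CPM in KO replicates 1 to 3. WT replicate 3 was 3.01-fold above the next library, and WT replicate 1 lay below KO replicate 2. The means were 39.3 ± 35.9 and 8.31 ± 5.94 CPM (SD, n = 3 each), with a log2 fold change of -2.24 ± 0.83 (SE), an unadjusted p of 0.0325 and an adjusted p of 0.38 in edgeR. The estimate was -1.20 without WT replicate 3. *Cyp2u1*, which hydroxylates long-chain fatty acids, was at 1.04, 1.81 and 2.25 CPM in WT and 0.63, 0.95 and 0.74 CPM in KO. All its KO libraries lay below all WT libraries, with a log2 fold change of -1.13 ± 0.44 (SE), an unadjusted p of 0.0384 and an adjusted p of 0.399 in edgeR.

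None of the other tested CYP2 genes had an unadjusted p under 0.05 in edgeR. *Cyp2d22*, a mouse relative of human CYP2D6, was at 21.9, 28.7 and 25.9 CPM in WT and 13.4, 18.4 and 26.0 CPM in KO, with an estimate of -0.40 ± 0.28 (SE). *Cyp2j6*, an arachidonic acid epoxygenase, stayed between 15.2 and 19.2 CPM in the 6 libraries, and *Cyp2r1*, a vitamin D 25-hydroxylase, between 1.78 and 2.90 CPM. *Cyp2t4* was at 0.37, 0.92 and 1.17 CPM in WT and 0, 1.28 and 1.94 CPM in KO. Reads from any stretch where *Cyp2t4* and *Egln2* overlap on opposite strands cannot be told apart, since the strand setting of the counting is not given.

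The CYP3 and CYP4 families, which oxidise drugs and fatty acids, were mostly low or level. *Cyp3a13*, the CYP3 gene that was tested, was at 3.23, 1.23 and 0.23 CPM in WT and 1.90, 0.98 and 2.10 CPM in KO, with an estimate of 0.09 ± 0.86 (SE). Of the 20 CYP4 genes 9 were tested, with 5 positive and 4 negative estimates and a median of 0.11. *Cyp4b1*, a lung-rich P450 that activates plant furans such as ipomeanol, was at 137.5, 55.7 and 35.9 CPM in WT replicates 1, 2 and 3 and at 156.0, 118.2 and 236.2 CPM in KO replicates 1, 2 and 3. Only WT replicate 1 lay above a KO library. The log2 fold change was 1.16 ± 0.53 (SE), with an unadjusted p of 0.0698 and an adjusted p of 0.462 in edgeR, and it was 1.89 without WT replicate 1.

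Within the Cyp4f subfamily, 7 genes were tested and 3 had positive estimates. *Cyp4f18*, which hydroxylates leukotriene B4 in neutrophils, was at 21.0, 30.2 and 41.2 CPM in WT and 27.6, 29.8 and 15.1 CPM in KO, with overlap and an estimate of -0.35 ± 0.35 (SE). *Cyp4f16* and *Cyp4f13* were nearly level, the first between 23.6 and 29.9 CPM and the second between 13.3 and 15.5 CPM in the 6 libraries. *Cyp4f15* had no count in WT replicate 2 and was at 2.64 and 0.18 CPM in WT replicates 1 and 3, against 1.23, 1.19 and 2.74 CPM in KO. *Cyp4f37*, named after its values were seen, was below 1 CPM in every library, at 0, 0 and 0.20 CPM in WT and 0.54, 0.71 and 0.34 CPM in KO. It shares 21.7% of its 50-base windows with other genes, mostly *Cyp4f16*, so this value is uncertain.

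Theta-class GST genes, whose enzymes act on small halogenated compounds and peroxides, had positive estimates in 3 of 3 tested members, with a median of 0.49. The median was 0.09 without KO replicate 1 and 1.13 without WT replicate 1, and *Gstt2* was at -0.20 without KO replicate 1. The median was 0.28 without WT replicate 2, 0.24 without WT replicate 3 and 0.76 without KO replicate 2. *Gstt1* (ENSMUSG00000001663, chromosome 10, 75783813 to 75798584, minus strand) was at 22.6, 13.9 and 16.1 CPM in WT replicates 1, 2 and 3 and at 64.7, 27.6 and 35.3 CPM in KO replicates 1, 2 and 3. All KO libraries lay above all WT libraries. The means were 17.6 ± 4.5 and 42.5 ± 19.6 CPM (SD, n = 3 each), 2.42-fold apart, and the log2 fold change was 1.28 ± 0.37 (SE). The unadjusted p was 0.0117 and edgeR's adjusted p was 0.286. Leaving out KO replicate 1, its highest library, gave 0.84, and leaving out both first replicates gave 1.07.

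The neighbours of *Gstt1* on chromosome 10 showed smaller estimates and overlapping groups. *Gstt3* was at 29.5, 11.7 and 10.5 CPM in WT and 36.3, 14.5 and 22.1 CPM in KO, with an estimate of 0.49 ± 0.51 (SE). *Gstt2* was at 12.4, 7.22 and 7.68 CPM in WT and 16.9, 6.55 and 9.25 CPM in KO, with an estimate of 0.26 ± 0.42 (SE). Each of the 3 genes was highest in KO replicate 1. In all 3 the first replicate was the highest library of its genotype, but WT replicate 1 lay below every KO library in *Gstt1* alone.

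Mu-class GST genes conjugate epoxides and quinones, and all 7 were tested, with 6 positive estimates and a median of 0.18. *Gstm1* was at 114.0, 76.1 and 66.7 CPM in WT replicates 1 to 3 and at 163.8, 104.0 and 145.5 CPM in KO replicates 1 to 3. Only WT replicate 1 lay above a KO library. The log2 fold change was 0.69 ± 0.28 (SE), with an unadjusted p of 0.0457 and an adjusted p of 0.416 in edgeR, and 0.95 without WT replicate 1. *Gstm2* was at 98.2, 57.4 and 50.5 CPM in WT and 96.8, 59.9 and 68.6 CPM in KO, with the first replicates highest in both genotypes and an estimate of 0.13 ± 0.32 (SE). *Gstm5*, the mu gene with a negative estimate, was at 23.5, 14.1 and 12.6 CPM in WT and 18.6, 9.67 and 7.22 CPM in KO (-0.50 ± 0.43, SE). *Gstm3*, named after its values were seen, had no overlap but stayed below 1 CPM in every library, with 3, 6 and 0 counts in WT.

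Alpha-class GST enzymes handle lipid peroxidation products, and this class had the widest median range over libraries of the 6 GST classes, 3.22 log2 units. All 4 genes varied over at least 2 log2 units, and 0 had an unadjusted p under 0.05. *Gsta3* was at 83.4, 24.1 and 13.7 CPM in WT replicates 1, 2 and 3 and at 102.3, 20.3 and 47.3 CPM in KO replicates 1, 2 and 3. Both first replicates were high, and the estimate of 0.49 ± 0.81 (SE) became -0.26 without KO replicate 1. *Gsta4*, which conjugates 4-hydroxynonenal, was at 49.0, 9.19 and 5.31 CPM in WT and 25.4, 14.4 and 27.7 CPM in KO, with an estimate of 0.09 ± 0.81 (SE). *Gsta1* was at 2.89 CPM in WT replicate 1 and between 0.25 and 0.86 CPM in the other 5 libraries. Of its 50-base windows 89.7% are shared with other genes, mostly *Gm3776*, so its reads cannot be assigned.

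All 3 pi genes, *Gsto1* and *Gstk1* were highest in WT replicate 1, and *Gsto2* in KO replicate 1. *Gstp1*, an abundant cytosolic form of airway and alveolar epithelium, was at 189.2, 64.9 and 60.5 CPM in WT and 107.2, 61.1 and 75.7 CPM in KO. WT replicate 1 was 1.76-fold above the next library, and the other WT libraries lay within or close to the KO range (-0.37 ± 0.49, SE). *Gstp2*, which shares 50.4% of its windows, mostly with *Gstp1*, had an estimate of -0.18 ± 0.46 (SE), and *Gstp3* one of 0.17 ± 0.60 (SE). *Gsto1*, a thioltransferase and dehydroascorbate reductase, was at 309.9, 89.6 and 68.4 CPM in WT and 116.6, 91.5 and 113.9 CPM in KO. Here WT replicate 1 was 2.66-fold above any other library, and the estimate of -0.54 ± 0.57 (SE) became 0.44 without it. *Gsto2* was near or below 1 CPM in every library, with an estimate of 1.00 ± 0.65 (SE). *Gstk1*, a form of mitochondria and peroxisomes, was at 39.1, 12.5 and 11.5 CPM in WT and 34.6, 15.3 and 23.5 CPM in KO (0.22 ± 0.55, SE).

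The 5 FMO genes differed in the direction of their estimates. *Fmo1* (ENSMUSG00000040181) was at 41.5, 92.6 and 104.2 CPM in WT replicates 1, 2 and 3 and at 119.4, 148.1 and 173.2 CPM in KO replicates 1, 2 and 3. All KO libraries lay above all WT libraries, and the first replicate was the lowest library of each genotype. The means were 79.4 ± 33.4 and 146.9 ± 27.0 CPM (SD, n = 3 each), with a log2 fold change of 0.89 ± 0.36 (SE), an unadjusted p of 0.0472 and an adjusted p of 0.418 in edgeR. *Fmo5*, an FMO that inserts oxygen into ketones, was at 9.92, 9.34 and 10.4 CPM in WT and 17.1, 13.04 and 13.9 CPM in KO. It had no overlap and a tight spread in WT, with a log2 fold change of 0.57 ± 0.21 (SE), an unadjusted p of 0.0295 and an adjusted p of 0.37 in edgeR. Over the libraries left out in turn the estimate lay between 0.58 and 1.13 for *Fmo1* and between 0.45 and 0.65 for *Fmo5*.

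*Fmo2*, the most abundant FMO gene on the FPKM scale, was at 868.9, 530.4 and 437.5 CPM in WT and 452.8, 411.5 and 566.6 CPM in KO. WT replicate 1 was 1.53-fold above any other library, and the estimate of -0.36 ± 0.32 (SE) was 0.02 without both first replicates. *Fmo4* was at 2.24, 3.81 and 5.14 CPM in WT and 1.67, 2.65 and 3.42 CPM in KO, with an estimate of -0.53 ± 0.44 (SE).

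The GST genes were highest on average in the first replicate of both genotypes. The mean level of the 20 tested GST genes, as log2 CPM centred on each gene's mean over the 6 libraries, was 0.71, -0.52 and -0.86 in WT replicates 1, 2 and 3 and 0.65, -0.24 and 0.25 in KO replicates 1, 2 and 3. WT replicate 3 was lowest. On the same scale the 23 P450 genes were at 0.29, -0.47 and -0.47 in WT and 0.11, 0.21 and 0.34 in KO. The P450 mean was thus lowest in WT replicates 2 and 3, with the other 4 libraries between 0.11 and 0.34.

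A first replicate was the highest library of 18 of the 20 GST genes (90%) and of 9 of the 23 P450 genes, against 47% of all genes. The lowest library was WT replicate 2 or 3 in 17 of the 20 GST genes and 10 of the 23 P450 genes, against 24.5% of all genes. Over all 48 members the highest library was WT replicate 1 in 17, KO replicate 1 in 13, KO replicate 3 in 10, WT replicate 3 in 6, and WT replicate 2 and KO replicate 2 in 1 each. The shares over all genes were 25.1%, 21.9%, 14.5%, 13.9%, 11.6% and 13% in that order. WT replicate 3 was the lowest library of 20 members and WT replicate 2 of 9, against 14.1% and 10.4% of all genes. KO replicate 1 was lowest in 6 (23.9%), KO replicate 3 in 5 (16.2%), and WT replicate 1 and KO replicate 2 in 4 each (23.9% and 11.5%).

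The range over libraries was at least 2 log2 units in 21 of the 48 members (43.8%), against 22.3% of all genes. Ranges of at most 1.46-fold were found in *Cyp4f13*, *Cyp2j6*, *Cyp4f16*, *Cyp4f17* and *Gstm6*. By contrast *Cyp1a1* spanned 113-fold, *Cyp2f2* 24.6-fold, *Cyp2e1* 22.9-fold and *Cyp2b10* 22.8-fold between the lowest and the highest library. The heat map shows these patterns gene by gene.

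**Figure D3:**
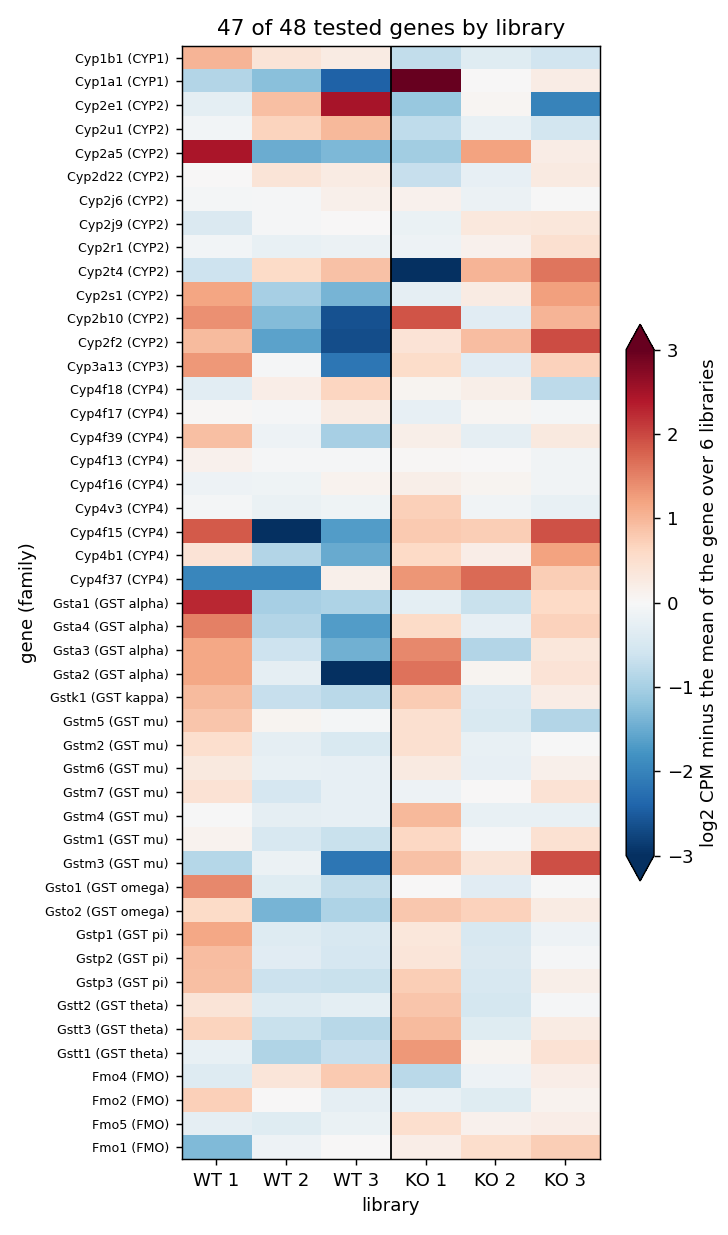
Log2 CPM of 47 of the 48 tested members minus the mean of each over the 6 libraries, in rows by family and columns by library, with the colour scale ending at 3 log2 units. GST rows are mostly red in WT 1 and KO 1 and blue in WT 2 and WT 3.

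Transcript length moved with the library as well. The longest annotated transcript had a median length of 1180.5 bases in the GST genes, 2536 bases in the P450 genes and 3106 bases in the FMO genes. All tested genes of 1000 to 2000 bases (n = 2593) had median centred levels of 0.37, -0.10 and -0.10 in WT replicates 1, 2 and 3 and 0.22, -0.15 and -0.15 in KO replicates 1, 2 and 3. Genes over 8000 bases (n = 884) were at -0.40 and -0.36 in the first replicates of WT and KO and between 0.13 and 0.26 in the other 4 libraries. The part of transcript length in the GST pattern was not tested.

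Markers of airway and alveolar epithelium varied over the libraries too, and their part in the members' values was not tested. The 17 secretory airway markers had mean centred levels of 2.09, -1.34 and -1.92 in WT replicates 1 to 3 and -0.79, 0.96 and 0.99 in KO replicates 1 to 3, with summed levels of 663.7 to 13410 CPM in WT and 2152 to 5088 CPM in KO. None of the 17 had an unadjusted p under 0.05 in edgeR, 8 estimates being positive and 9 negative. The defining marker *Scgb1a1* was at 10240, 843.2 and 250.4 CPM in WT and 2110, 1124 and 3618 CPM in KO, never near 0. *Cyp2f2* amounted to 2.79%, 5.72% and 9.28% of the CPM of *Scgb1a1* in WT and to 9.34%, 25% and 15.8% in KO. Expressed in this way, all KO libraries lay above all WT libraries, although WT replicate 3 and KO replicate 1 were nearly level. The same ratio for *Cyp2b10* was 1.40%, 2.63% and 3.55% in WT and 9.61%, 3.85% and 3.11% in KO, and there the groups overlapped.

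The 15 ciliated cell markers tested were at 1.20, -0.73 and -1.51 in WT and -0.52, 0.30 and 1.26 in KO on the centred scale, and 0 had an unadjusted p under 0.05. Type 2 alveolar cell markers were at 0.44, -0.95 and -1.30 in WT and 1.34, -0.41 and 0.88 in KO, with positive estimates in 15 of 15, against 49% of all genes, and 3 at an unadjusted p under 0.05 (20%), all higher, against 5.95% of all genes. Type 1 alveolar cell markers were at 0.65, -0.53 and -1.05 in WT and 1.16, -0.59 and 0.35 in KO. Like the GST genes, both alveolar lists were higher in the first replicates than in WT replicates 2 and 3. The same held for 8 mesothelial markers, at 1.56, -0.62 and -0.26 in WT and 1.42, -1.03 and -1.07 in KO. The part of mesothelial cells was not tested either. Alveolar fibroblast markers were lowest in WT replicate 1 at -0.83 and highest in KO replicate 3 at 0.75, the same libraries that were lowest and highest for *Fmo1*. Their estimates were positive in 16 of 16 (median 0.82), against 49% of all genes. In 6 (37.5%) the unadjusted p was under 0.05, all higher, against 5.95% of all genes. Their part in the *Fmo1* values was not tested.

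Fat markers, which include *Adipoq*, *Cidec* and *Cfd*, were lower in estimate in 7 of 7 tested genes, none at an unadjusted p under 0.05, and their summed level ran from 64.3 to 216.0 CPM in WT and 26.3 to 85.6 CPM in KO. *Adipoq* was at 2.09, 5.75 and 19.8 CPM in WT and 3.57, 5.95 and 1.70 CPM in KO, and *Cfd* at 35.3, 33.7 and 113.9 CPM in WT and 16.01, 49.2 and 12.7 CPM in KO. WT replicate 3 was the highest library and KO replicate 3 the lowest for *Cyp2e1*, *Adipoq* and *Cfd*, and *Cidec* was highest in WT replicate 3 and lowest in WT replicate 1. Most hepatocyte markers were near the detection limit: 4 of 12 were tested, *Alb* did not exceed 0.82 CPM and *Apoa1* did not exceed 0.31 CPM. *Tat* was higher, at 32.6 CPM in WT replicate 1 and at or below 1.81 CPM elsewhere. Summed, the 4 tested markers were at 38.7 CPM in WT replicate 1 and at 1.90 to 5.15 CPM elsewhere, so *Tat* was not the only one above that limit. *Cyp2e1* amounted to 556%, 462% and 403% of the CPM of *Adipoq* in WT and to 182%, 251% and 205% in KO. All KO libraries lay below all WT libraries on this ratio, although the groups overlapped in the CPM of *Cyp2e1* itself. The separation depended on the marker. WT replicate 1 had 11.6 CPM of *Cyp2e1* to 35.3 CPM of *Cfd*, and KO replicate 1 had 6.51 to 16.01 CPM. Relative to *Cfd*, WT replicate 1 thus lay below KO replicate 1, and the groups overlapped. The part of fat tissue in the *Cyp2e1* values was not tested.

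**Figure D4:**
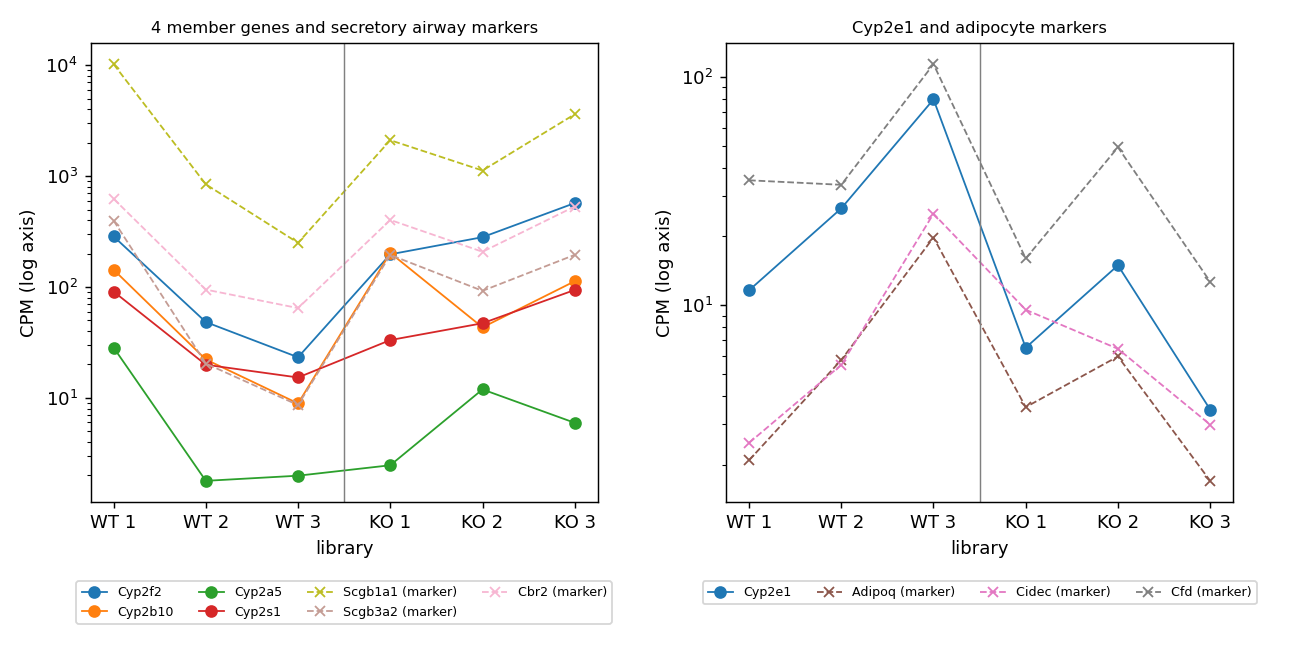
CPM (log axis) by library of *Cyp2f2*, *Cyp2b10*, *Cyp2a5* and *Cyp2s1* (solid lines) with 3 secretory airway markers (dashed), and of *Cyp2e1* with 3 fat markers. Lines only join the values of a gene, and WT 3 is the highest library of *Cyp2e1* and of all 3 fat markers shown.

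Many members lie in gene clusters. The 7 mu-class genes on chromosome 3 (107895821 to 108044894, GRCm38) had 6 positive estimates, and the 3 theta-class genes on chromosome 10 (75774115 to 75837424) had 3. On chromosome 7 (25802475 to 27158668), *Cyp2s1*, *Cyp2b10*, *Cyp2a5*, *Cyp2f2* and *Cyp2t4* had 4 positive estimates. Other clusters were mixed, with 1 of 4 positive in the FMO cluster on chromosome 1 and 3 of 6 in the Cyp4f cluster on chromosome 17. On chromosome 19 it was 1 of 3 in the pi class and 1 of 2 in the omega class. The alpha-class cluster on chromosome 9 had 2 of 3, and the Cyp2j cluster on chromosome 4 had 1 of 2. Estimates were positive for 49% of all genes. Some neighbours share sequence, and the counts of those are not independent measurements. The share of 50-base transcript windows found in another gene was 51% for *Gstp1*, 47.4% for *Gsta2*, 38.6% for *Cyp2a5*, 28.8% for *Gstm3*, 26% for *Cyp4f16*, 20.6% for *Gstt3* and 19.9% for *Gstm1*, and how such reads were counted is not known here. It was 0% for *Cyp2f2*, *Gstt1*, *Gsta3*, *Gsto1* and *Fmo2*. Of these, *Cyp2f2*, *Gsta3* and *Gsto1* overlap a gene annotated on the opposite strand, as do *Gsto2*, *Gstm5*, *Cyp2s1*, *Cyp2u1* and *Cyp4f18*. Reads from such stretches are uncertain, because the strand setting is not given.

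Partner genes of the P450 and FMO enzymes showed no member at an unadjusted p under 0.05 in 10 tested (median 0.02). *Alas1*, the first enzyme of haem synthesis, had an estimate of 0.56 ± 0.34 (SE), *Pgrmc2* one of -0.30 ± 0.16 (SE), and the reductase *Cyb5r3* one of -0.21 ± 0.45 (SE). *Por*, the P450 oxidoreductase, had one of -0.31 ± 0.28 (SE). P450 genes outside families 1 to 4 had 3 of 12 tested at an unadjusted p under 0.05, all lower in KO, against 11.8% of all genes in either direction and 5.89% lower. *Cyp26b1*, which breaks down retinoic acid, was at 29.1, 290.5 and 79.3 CPM in WT and 3.47, 10.2 and 21.2 CPM in KO, without overlap (-3.51 ± 1.02, SE, adjusted p = 0.289 in edgeR and 0.00208 in DESeq2). *Ptgis*, the prostacyclin synthase, had an estimate of -1.06 ± 0.31 (SE), and the sterol demethylase *Cyp51* one of 0.38 ± 0.37 (SE). The electron carrier *Cyb5b* had one of 0.24 ± 0.23 (SE).

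Glutathione transferases of other families had 3 of 12 at an unadjusted p under 0.05, 1 higher and 2 lower in KO, with a median of -0.39, against 11.8% of all genes. Those lower were the eicosanoid enzymes *Ptges*, the prostaglandin E synthase (-1.01 ± 0.24, SE), and *Ltc4s*, the leukotriene C4 synthase (-1.33 ± 0.45, SE). Glutathione synthesis and recycling had 2 of 24 (8.33%), both lower, against 11.8% of all genes in either direction and 5.89% lower. These were *Gpx7* (-0.93 ± 0.21, SE) and *Gclm*, a subunit of the rate-limiting enzyme of glutathione synthesis (-0.43 ± 0.18, SE). The abundant peroxidase gene *Gpx3* had an estimate of -0.70 ± 0.31 (SE). Arachidonic acid enzymes had 4 of 17 (23.5%, against 11.8% of all genes), 2 higher and 2 lower, with a median of -0.31. Among them *Hpgd*, which inactivates prostaglandins, had an estimate of 1.25 ± 0.29 (SE) and *Alox5ap*, the partner of 5-lipoxygenase, one of -0.60 ± 0.26 (SE). The abundant *Gpx1*, *Clic1* and *Clic4* had estimates of -0.27, -0.38 and 0.28.

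The NRF2 pathway, which controls many GST genes in other settings, had 4 of 27 tested genes at an unadjusted p under 0.05, all lower in KO, and a median of -0.17. This was 14.8% of the list, against 11.8% of all genes in either direction and 5.89% lower. *Hmox1*, the haem oxygenase gene, was at 861.0, 327.8 and 349.4 CPM in WT replicates 1, 2 and 3 and at 126.3, 69.1 and 65.1 CPM in KO replicates 1, 2 and 3. Its groups did not overlap, with a log2 fold change of -2.56 ± 0.50 (SE) and an adjusted p of 0.216 in edgeR and 4.93e-05 in DESeq2. Markers of monocytes and interstitial macrophages were lower in estimate in 13 of 15 (median -0.60), with 5 at an unadjusted p under 0.05, all lower, and KO below WT in 6, against 5.89% and 11.3% of all genes. Their summed level ran from 11210 to 24350 CPM in WT and from 6896 to 13070 CPM in KO, with none at 0, and their part in the values of *Hmox1*, the NRF2 list, *Ltc4s* and *Alox5ap* was not tested. *Akr1b8* had an estimate of -1.10 ± 0.28 (SE), and the ferritin genes *Fth1* and *Ftl1* had estimates of 0.13 and 0.05. *Nqo1*, another classic target, was at 14.7, 7.28 and 6.74 CPM in WT and 11.0, 3.75 and 4.96 CPM in KO. With all libraries, the tested GST genes thus had a positive median and the NRF2 list a negative one, a difference that was not tested. The GST median was itself negative, at -0.07, when KO replicate 1 was left out.

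Xenobiotic nuclear receptors had 2 of 13 (15.4%) at an unadjusted p under 0.05, against 11.8% of all genes, and a median of 0.01. *Nr1h3*, the oxysterol receptor LXR alpha, was at 20.6, 21.1 and 24.5 CPM in WT and 38.8, 37.4 and 38.9 CPM in KO (0.80 ± 0.16, SE, adjusted p = 0.216 in edgeR and 0.00408 in DESeq2). *Nr1h4*, the bile acid receptor FXR, had an estimate of -1.96 ± 0.58 (SE) at levels of 3.01 CPM or less, and the abundant *Nr3c1* and *Rxra* had estimates of 0.37 and 0.01. Of the other conjugating and hydrolysing enzymes, 6 of 33 (18.2%, against 11.8% of all genes) had an unadjusted p under 0.05, 4 higher and 2 lower in KO. *Ugt1a7c*, a glucuronosyltransferase, was at 64.9, 54.5 and 56.9 CPM in WT and 29.2, 26.0 and 18.0 CPM in KO (-1.27 ± 0.22, SE). It shares exons with the other genes of its locus, so its count is uncertain. The alcohol dehydrogenase gene *Adh1* had an estimate of 1.31 ± 0.16 (SE) and *Aldh2* one of 0.21 ± 0.23 (SE). *Aldh1a1*, an aldehyde dehydrogenase of retinoic acid synthesis, was at 704.5, 227.8 and 157.1 CPM in WT and 614.1, 376.7 and 563.0 CPM in KO, and its order of libraries was that of the GST mean.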

How the data were processed

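Per the labels' protocols, TRIzol RNA of 6 whole lungs, 3 WT and 3 KO, went into NEBNext Ultra libraries. The authors deposited whole-number read counts for each gene, not normalized. FPKM values, scaled by the authors to gene length and library size, were deposited in a second table, whose KO columns carry a suffix that no label explains and were assigned to the KO group only. Per the submitters' processing notes, HISAT2 2.0.4, StringTie 1.3.4d and GRCm38 were used, in roles those notes leave unsaid. Sources used here do not give the strand setting, the annotation release or how reads shared by similar genes were handled, so close relatives and overlapping genes are uncertain.

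Counts were tested with edgeR 4.0.16 in R 4.3.3 (filterByExpr, TMM factors, robust quasi-likelihood fit, 2-sided, genotype as the only term), with Benjamini-Hochberg adjustment over all 16633 genes kept and a threshold of 0.05. Each SE was derived from the fold change and its F statistic, so it adds nothing to p. CPM used TMM-scaled totals, and log2 CPM a prior count of 2. Alternatives were DESeq2 1.42.0, limma 3.58.1 voom with and without sample weights, other size factors, a non-robust fit, other filters, a replicate block, each library or both first replicates left out, and limma on log2(FPKM + 1) and log2(FPKM + 0.1). The edgeR step was tested on simulated data. Coordinates and transcript windows came from GENCODE M21.

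Members and lists were chosen with earlier results of these data known. Named members were, in each direction, the 6 of smallest p with a mean of at least 1 CPM, the 3 of highest mean FPKM in each family or class, and the 5 of widest range over libraries. For each pathway list the 2 of smallest p and the 2 of highest mean CPM were named. Values of 1 named member are left out of the text, though counts and family medians include it. Others were picked after their values were seen: *Cyp2a5*, *Cyp4f37*, *Gstm3*, *Gstt4*, *Cyp2c23*, *Cyp2j6*, *Cyp2r1*, *Cyp4f13*, *Cyp4f17*, *Gstm6*, *Ahr*, *Ahrr*, *Nqo1* and *Por*.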

Additional observations from a re-analysis of the deposited data

How the results depend on the processing

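With 3 mice per genotype, edgeR called 0 members under every count of libraries and every scaling tried, and the number called was 1 with DESeq2 and 12 with limma-voom with sample weights (10 higher and 2 lower in KO). Limma on FPKM called 0. Depth limits the members under about 1 CPM, where a few counts decide the estimate. Scalings (DESeq2 size factors, total counts) and the non-robust fit reversed no named member.

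The labels do not say whether the replicate numbers pair the mice. Deviations of same-numbered libraries from their group means correlated at 0.351, 0.35 and -0.099, and those of differently numbered libraries at -0.512 to 0.468. Deviations from a mean of 3 libraries depend on each other, so these values cannot settle whether mice were paired. With the replicate number as a block, 0 members passed adjustment, and the members' median estimate was 0.30. An unadjusted p under 0.05 was found for 7 of 48 members (14.6%), against 20.4% of all genes (3387). The members' share was thus below that of all genes, unlike in the main fit. The block reversed *Cyp2t4* (-0.34).

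Estimates that turned direction belonged to members whose SE was near or above their size. For *Cyp2t4* they were -1.11 with limma-voom and -0.12 on log2(FPKM + 0.1). Sample weights gave 0.87 for *Gsta1*, 0.25 for *Gsto1*, 0.08 for *Gstp1* and 0.14 for *Gstp2*. Leaving out both first replicates gave 1.22, 0.39, 0.13 and 0.22 for the same 4 genes and 0.02 for *Fmo2*. With 1 library left out at a time, the estimates that reversed ranged from -0.06 to 1.72 for *Cyp2s1*, -0.42 to 1.18 for *Cyp3a13*, -0.26 to 1.58 for *Gsta3*, -0.37 to 1.63 for *Gsta4*, -1.54 to 1.08 for *Gsta1*, -0.11 to 1.03 for *Gstk1* and -0.10 to 0.48 for *Gstm2*. They ranged from -0.89 to 0.44 for *Gsto1*, -0.64 to 0.37 for *Gstp1*, -0.43 to 0.42 for *Gstp2*, -0.18 to 0.92 for *Gstp3*, -0.20 to 0.55 for *Gstt2* and -0.35 to 0.97 for *Cyp2t4*. The cause was not tested.

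Family medians also turned. The FMO median of -0.36 was 0.57 without WT replicate 1, and the GST median of 0.20 was -0.07 without KO replicate 1. The P450 median of 0.11 was -0.05 without KO replicate 3, over 25 genes. The CYP2 median of 0.31 was -0.06 without KO replicate 3, and the CYP4 median of 0.11 was -0.04 without KO replicate 1. Among GST classes, the alpha median of 0.29 was -0.15 without WT replicate 3. The omega median of 0.23 was -0.1 without WT replicate 2, and the pi median of -0.18 was 0.42 without WT replicate 1. *Cyp1b1*, *Gstt1*, *Fmo1*, *Fmo5*, *Gstm1*, *Cyp1a1*, *Cyp4b1*, *Cyp2e1* and *Cyp2u1* kept their direction under all alternatives that could be fitted.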
